A study of Saccharomyces cerevisiae with 151 samples.

Results

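The genes described here encode the 26S proteasome of the yeast Saccharomyces cerevisiae, together with RPN4, the transcription factor that drives their expression. They were chosen by symbol from the platform annotation: SCL1, PRE1 to PRE10, PUP1 to PUP3, RPT1 to RPT6, and every RPN gene with a number. That gave 34 genes of the 5656 that the array measures with a probe set of 1 annotated gene, and all 34 passed the filter on low signals that left 5611 genes in the tests. RNA came from BY4741, a laboratory strain that lacks working copies of HIS3, LEU2, MET15 and URA3, grown at 28 °C in synthetic complete medium. Each culture was sampled at an OD600 of 0.5 (0 min) and then after 3-aminotriazole (3AT), a competitive inhibitor of the HIS3 enzyme used to starve cells of histidine, was added to 100 mM. Since this strain lacks a working HIS3, inhibition of that enzyme cannot be assumed here. Whether the cells were starved was not measured.

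All strains shared that background and that protocol, in which 200 ml was drawn at each time from a culture that served the whole time course. Whether replicates were grown apart is not stated, and p-values then reflect only the differences among arrays, which may be technical. The wild type (WT) and the single deletions of GCN4 (gcn4), LEU3 (leu3) and GAT1 (gat1) were taken at 0, 10, 20, 30, 45, 60, 90 and 120 min. The double deletions of GAT1 and GCN4 (gat1gcn4), GCN4 and LEU3 (gcn4leu3) and GAT1 and LEU3 (gat1leu3) were taken up to 60 min. Each time had 3 arrays except gat1 at 20 min, gcn4 at 60 min, gat1gcn4 at 0 and 45 min and gat1leu3 at 45 min, which had 2. The deletion of MET31 (met31) had 1 array at each of 6 times, its labels name no treatment after 0 min, and it entered no test. Gcn4 activates amino acid biosynthesis genes during starvation, Leu3 regulates the branched-chain amino acid pathway, Gat1 activates genes used on poor nitrogen sources, and Met31 regulates sulfur amino acid genes.

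The proteasome degrades proteins marked with ubiquitin. Its 20S core is a barrel of outer alpha rings and inner beta rings, where PRE3, PUP1 and PRE2 encode the catalytic subunits. Its 19S cap holds a base, with the ATPases RPT1 to RPT6 that unfold substrates, and a lid, with the deubiquitinase RPN11. Rpn4 binds an element found upstream of most of these genes and is itself degraded by the proteasome, a feedback loop by which yeast raises proteasome synthesis when degradation falls behind.

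Signals below are on the scale that sets each array's 2% trimmed mean to 500. Changes are differences of mean log2(signal + 16), given ± SE, and a gene was called when limma's p, adjusted by the Benjamini-Hochberg method over all 5611 genes of a contrast, was under 0.05. Only 1 of 5134 readings of the 34 genes lay below its array's floor, the 20th percentile of its probe sets, and the lowest WT mean at 0 min was 153, of RPN14. The arrays of the double deletions, of met31 and of replicate 3 of gcn4 and leu3 were deposited on another scale than the rest, so that for the double deletions strain and deposited scale cannot be told apart. Of the 178 readings of deleted genes in deletion strains 177 were more than 3 times below the WT median; the exception was GCN4 in replicate 3 of gcn4 at 90 min. Isolated low readings, more than 5 times below the lowest other array of the same group where that was at least 100, were found for 10 of 4930 readings of these genes, against 0.213% of all readings. The array with the most of them, 204 genes or 3.64% of those tested, was gat1leu3 at 0 min replicate 2, and results that rest on it are given with and without it.

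In WT the means of most proteasome genes lay above those before 3AT from 20 min on. In replicate 3 at 20 min only 16 of the 33 genes other than RPN4 lay above the 0 min mean. Neither the 33 genes nor RPN4 passed the test at any single time. At 120 min the changes ranged from below 0 for RPN14 to about 1 on the log2 scale for SCL1. For the 33 genes other than RPN4 the median change from 0 min was -0.04 at 10 min, 0.22 at 20 min, 0.45 at 30 min, 0.48 at 45 min, 0.31 at 60 min, 0.45 at 90 min and 0.44 at 120 min. The median over all genes lay between -0.12 and -0.05 at those times. Of the 33 genes 16 were above their 0 min value at 10 min, 27 at 20 min, 30 at 30 min, 27 at 60 min and 32 at 90 min. At 60 min the lid genes RPN3, RPN6 and RPN11 were among those below it, with changes of -0.12, -0.11 and -0.22. In these bulk cultures a change of RNA per cell cannot be told apart from a change in the share of cells that hold it.

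**Figure D1:**
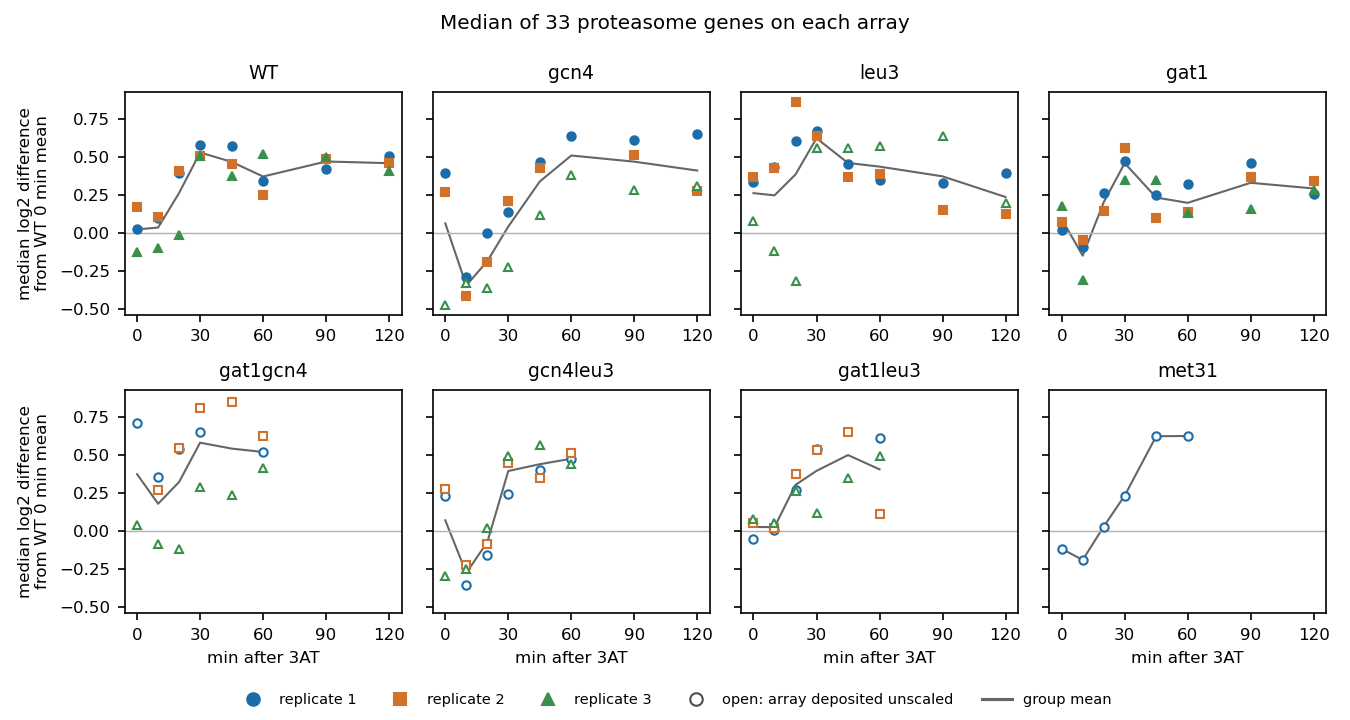
Median over 33 proteasome genes (RPN4 left out) of the log2 difference from the WT 0 min mean, on each array (y axis), against minutes after 3AT (x axis), in 8 strains; points are arrays, open where the array was deposited on another scale, and lines join group means. The 3 WT arrays at 30 min lie between 0.50 and 0.58, and the gcn4 arrays at 10 min between -0.41 and -0.29.

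No single change passed the test. 0 of the 34 genes were called at any WT time against 0 min, where 1.27% of all genes were called at 10 min, 2.21% at 20 min, 1.48% at 30 min, 1.09% at 45 min, 0.82% at 60 min, 0.749% at 90 min and 1.23% at 120 min. At an unadjusted p under 0.05 there were 9 of the 33 genes at 30 min and 8 at 90 min. The share of all genes at that threshold is not given here, so these counts cannot be judged against it. By the F-test over all WT times 2 of 34 genes were called, RPN3 and RPT3, where 7.2% of all genes were. All 3 arrays at 30 min were above all 3 at 0 min for 17 of the 33 genes, where 8.23% of all genes were, for 16 at 45 min (7.97% of all genes), for 9 at 60 min (6.93%), for 18 at 90 min (8.38%) and for 16 at 120 min (9.53%). The time of the highest WT mean was 30 min for 13 genes, 45 min for 8 and 120 min for 8, and 0 min for none.

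RPT3, an ATPase of the base, was one of the called pair. It read 579, 587 and 532 before 3AT, 923, 999.8 and 944 at 30 min and 878, 918 and 771 at 45 min, so that the 30 and 45 min arrays did not overlap with those at 0 min. Its F-test had an adjusted p of 0.0448, and its change at 30 min was 0.74 ± 0.26 (limma, adjusted p = 0.153). Replicate 3 read 328 at 10 min and 327 at 60 min, against 585 and 627, and 710.5 and 676, in the other arrays. RPN3, a lid subunit, read 885, 905 and 823 before 3AT, 1605, 1082 and 1044 at 20 min and 1290.5, 1303 and 1308 at 30 min. Its F-test had an adjusted p of 0.0186, and at 10 min replicate 3 was at 293 where the others were at 915 and 938. Leaving out that array left 0 of the 34 genes called over the WT times, and 1 was called when any of 11 other single WT arrays was left out.

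Within the core, the alpha ring had a median change of 0.38 at 30 min and 0.59 at 90 min, with 6 and 7 of its 7 genes above 0. SCL1, an alpha subunit, had the highest change of the 33 genes in WT at 10, 20, 60, 90 and 120 min. It read 666, 666 and 1098 before 3AT and 1652, 1352 and 1979 at 120 min, a change of 1.05 ± 0.40 (limma, adjusted p = 0.219) in which replicate 3 was the highest array at both times. PRE10, another alpha subunit, read 1347, 2076 and 1706 before 3AT and 3282, 2972 and 2754 at 30 min, without overlap, and its change was 0.83 ± 0.27 (limma, adjusted p = 0.0968).

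The beta ring, which holds the proteolytic sites, had a median change of 0.43 at 30 min and 0.48 at 90 min. PRE3, the subunit that cleaves after acidic residues, read 1742, 1917 and 1410.2 before 3AT and 3252, 2457 and 2432 at 120 min. All late arrays were above all early ones, with a change of 0.68 ± 0.27 (limma, adjusted p = 0.231). PUP1, the trypsin-like subunit, read 1645, 1695 and 1706 before 3AT and 2873, 2236 and 3004 at 45 min, a change of 0.67 ± 0.46 (limma, adjusted p = 0.881). At 30 min it read 3059, 276 and 1903, and replicate 2 of that time was also low for PRE5 (271) and RPN13 (299). PRE2, the chymotrypsin-like subunit, read 3102, 3659.8 and 2384 before 3AT and 4167, 3883 and 3151 at 45 min, which overlap, a change of 0.30 ± 0.28 (limma, adjusted p = 0.948).

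In the cap, the ATPases had a median change of 0.51 at 30 min and the lid one of 0.56, with 6 of 6 and 8 of 8 genes above 0. RPT2, the ATPase whose tail opens the core's gate, had the highest change of all at 30 min, from 653, 772 and 562 to 1166, 1387 and 1179.8, or 0.90 ± 0.33 (limma, adjusted p = 0.168). RPN11, the deubiquitinase, read 1764, 1876 and 1249 before 3AT and 2034, 2396 and 2078 at 30 min, all higher, with a change of 0.43 ± 0.28 (limma, adjusted p = 0.562). RPN10, a ubiquitin receptor at the base, read 1998, 1872 and 1228 before 3AT and 2801, 3626 and 2212 at 120 min, a change of 0.76 ± 0.32 (limma, adjusted p = 0.289). RPN14, which is an assembly chaperone and not a subunit of the finished particle, was the gene with the lowest change at 45, 90 and 120 min. It read 168, 145 and 145 before 3AT and 111, 135 and 97.9 at 120 min, which do not overlap, at -0.38 ± 0.29 (limma, adjusted p = 0.699).

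**Figure D2:**
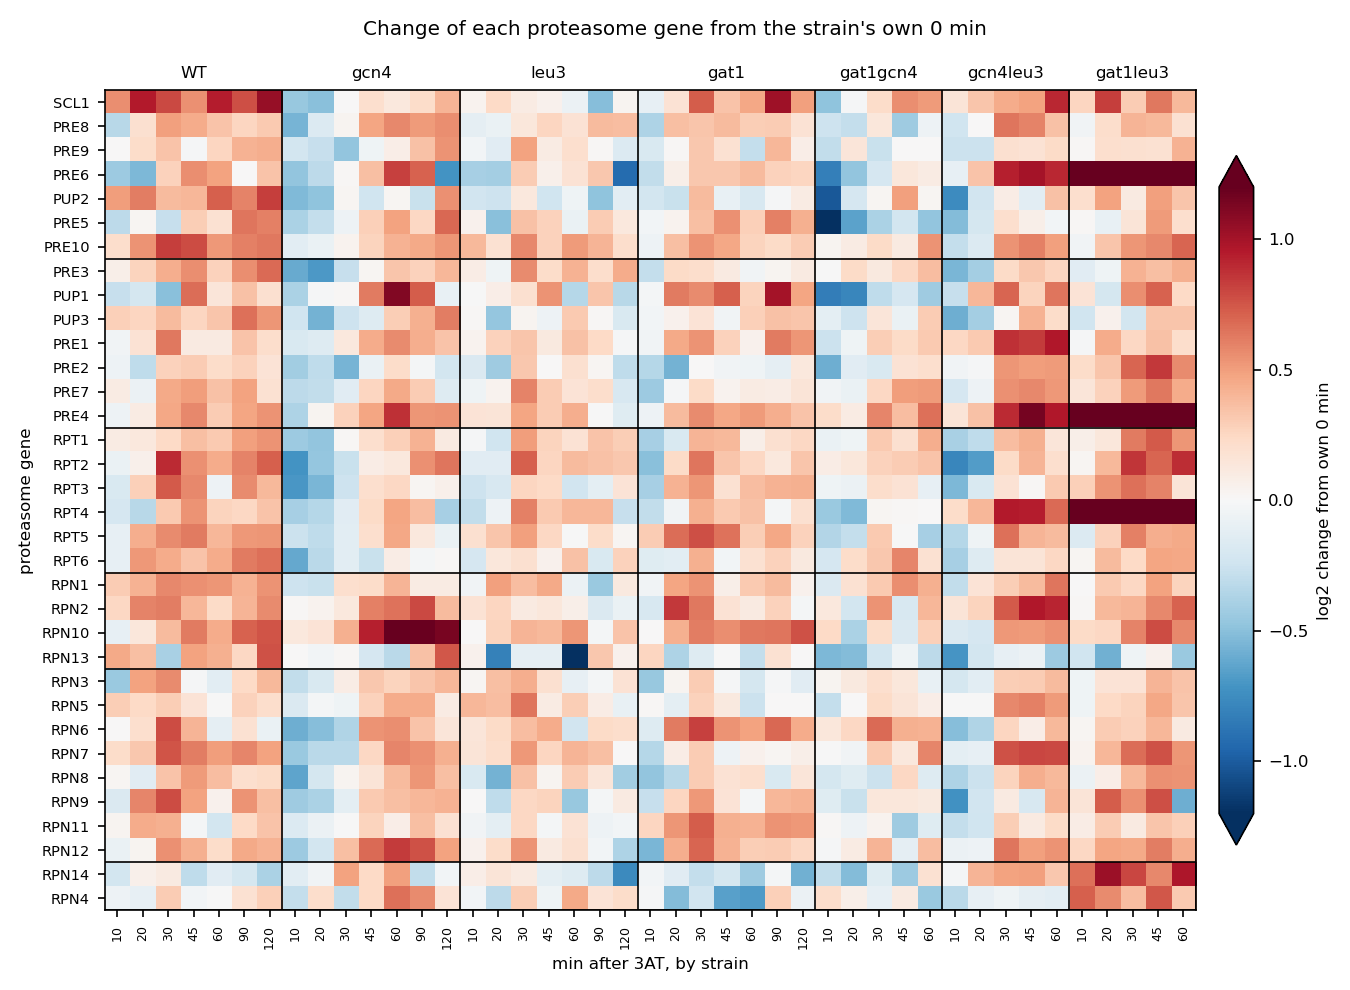
Log2 change of each of the 34 genes (rows, grouped as alpha ring, beta ring, ATPases, other base genes, lid, and RPN14 with RPN4) from the strain's own 0 min at each time (columns, by strain), with red higher and blue lower; the scale ends at 1.2 on either side. In WT 30 of the 33 genes other than RPN4 are above 0 at 30 min, in gcn4 30 are below 0 at 10 min, and PRE6, PRE4 and RPT4 in gat1leu3 exceed the scale at every time.

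RPN4 itself was not called. In WT it read 632, 569.8 and 483 before 3AT, 474, 471 and 631 at 20 min and 789, 748 and 567 at 30 min. The last time, 120 min, gave 826, 462 and 844. At 30 and 120 min 2 of 3 arrays were above all 0 min arrays and 1 was not, and at 20 min 2 of 3 were below them. Its change was -0.10 ± 0.34 at 20 min (limma, adjusted p = 0.949) and 0.31 ± 0.34 at 30 min (limma, adjusted p = 0.77). Over all WT arrays it ran from 428 to 844 with a median of 586. In no strain did RPN4 pass the F-test over times, and its adjusted p in single time contrasts was never below 0.399, reached in gat1 at 60 min.

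Across strains RPN4 ran from 201 to 961 in gcn4 (median 508), from 295 to 794 in leu3 (median 570.5), from 167 to 686 in gat1 (median 478), from 399.6 to 1327 in gat1gcn4 (median 784), from 445 to 904 in gcn4leu3 (median 588) and from 76.1 to 564 in gat1leu3 (median 377). The medians of WT, gcn4leu3 and leu3 were close together, gat1gcn4 had the highest and gat1leu3 the lowest, and the ranges of all strains overlapped. In gcn4 it read 632, 383 and 416 before 3AT and 697 and 795 at 60 min, both later arrays higher, a change of 0.66 ± 0.38 (limma, adjusted p = 0.595). In met31, with 1 array a time and no test, it read 300.4, 365, 736, 979, 730.2 and 924 at 0, 10, 20, 30, 45 and 60 min. At 0 min RPN4 was lower in gat1leu3 than in WT by 1.16 ± 0.34 on the log2 scale (limma, adjusted p = 0.0214), where the gat1leu3 arrays read 377, 76.1 and 454. Without the array at 76.1 the difference was -0.42 ± 0.35 (limma, adjusted p = 0.689), and the call was also lost without WT replicate 1 or 2.

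**Figure D3:**
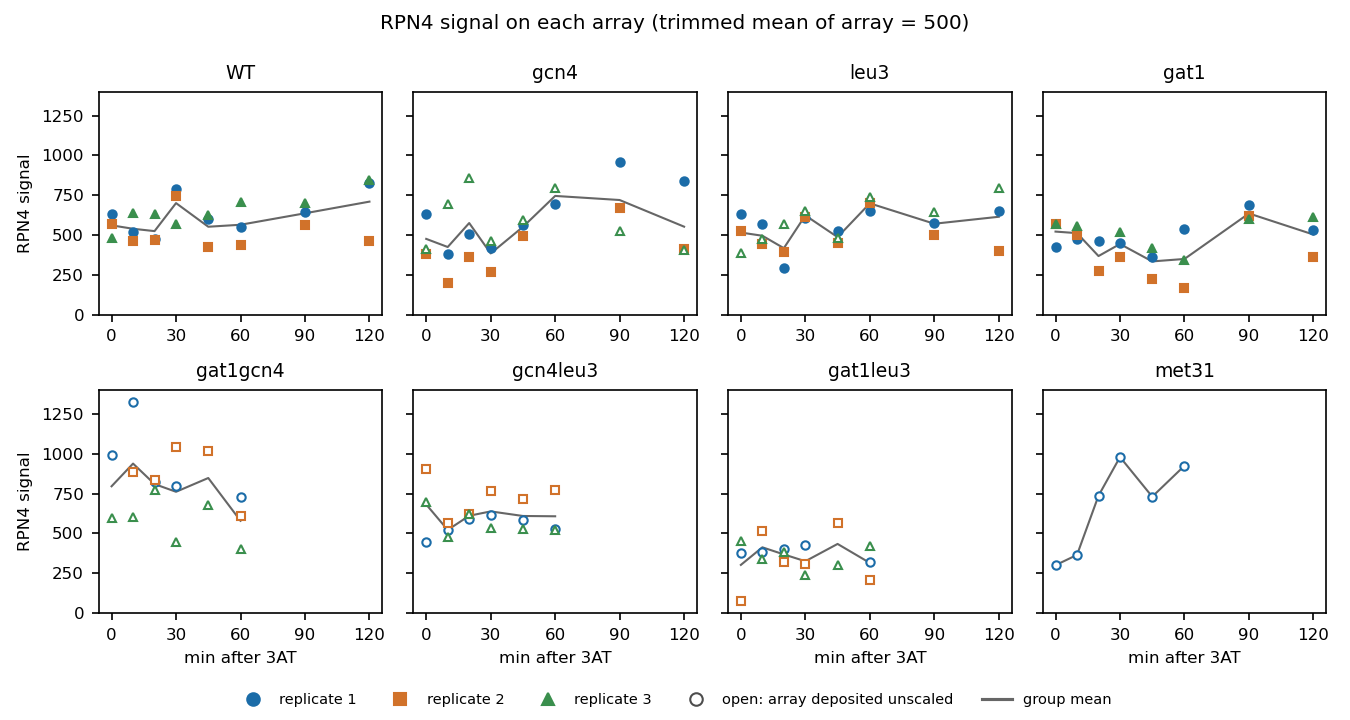
RPN4 signal on each array (y axis, array trimmed mean set to 500) against minutes after 3AT (x axis) in 8 strains; points are arrays, open where deposited on another scale, lines join group means. WT arrays lie between 428 and 844 at all times, gat1leu3 at 0 min holds the lowest array at 76.1, and gat1gcn4 at 10 min the highest at 1327.

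Before 3AT, no proteasome gene was called against WT in 5 of the 6 deletion strains. The median difference from WT at 0 min over the 33 genes was 0.06 in gcn4, 0.21 in leu3, 0.04 in gat1, 0.41 in gat1gcn4, 0.05 in gcn4leu3 and -0.04 in gat1leu3. Of the 33 genes 32 were above 0 in leu3 and in gat1gcn4. The 2 gat1gcn4 arrays at 0 min differed, with medians of 0.71 in replicate 1 and 0.04 in replicate 3. 0 of the 34 genes were called in gcn4, where 4.85% of all genes were, in leu3 (0.178% of all genes), in gat1 (0.0891%), in gat1gcn4 (4.38%) and in gcn4leu3 (3.37%). At an unadjusted p under 0.05 there were 0 of the 33 genes in gcn4, leu3 and gat1, 3 in gat1gcn4 and 1 in gcn4leu3. The share of all genes at that threshold is again not given. In gat1leu3 4 were called lower (PRE6, RPT4, PRE4 and RPN4), where 6.68% of all genes were called, and without replicate 2 none of the 34 was, against 1.16% of all genes. The call of PRE4 was also lost without any 1 of the 3 WT arrays.

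In gcn4 the mean levels of most proteasome genes lay below those at 0 min at 10 and 20 min and above them from 45 min on, and 11 of 34 passed the F-test over times, where 11.2% of all genes did. The 11 calls became 0, 1 and 7 when replicate 1, 2 or 3 was left out at every time, and 4 when the fit held only the gcn4 arrays. They were PRE8 and PRE9 of the alpha ring, PRE3 and PUP3 of the beta ring, the ATPases RPT2 and RPT3, the ubiquitin receptor RPN10, and RPN6, RPN7, RPN8 and RPN12 of the lid. The median change of the 33 genes was -0.38 at 10 min, -0.29 at 20 min, 0.00 at 30 min, 0.25 at 45 min, 0.42 at 60 min, 0.37 at 90 min and 0.38 at 120 min. 30 of 33 genes were below 0 at 10 and at 20 min, and 32 were above 0 at 60 min. The lowest mean of the 8 times was at 10 min for 19 genes, and the highest at 60 min for 17 and at 120 min for 11.

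The gcn4 arrays at 0 min stood apart from one another. Their medians against WT at 0 min were 0.39 and 0.27 in replicates 1 and 2 and -0.47 in replicate 3, the array deposited on another scale, while the 3 arrays at 10 min lay between -0.41 and -0.29. Replicate numbers were taken to pair the arrays in this strain. Replicate 3 was deposited on another scale at every time, so for it a shared scale and a shared culture cannot be told apart. Within numbers the direction differed: replicate 1 went from 0.39 to -0.29 at 10 min and replicate 2 from 0.27 to -0.41, but replicate 3 from -0.47 to -0.33. Only 1 of the 33 genes had all arrays at 10 min below all those at 0 min, where 10.3% of all genes did. Without replicate 3 at 0 min the median change was -0.59 at 10 min and 0.13 at 60 min. With only the arrays of the common deposited scale it was -0.65 at 10 min, with 32 of 33 genes below 0 and 11 called. The share of all genes called on those arrays is not given here, so the 11 cannot be judged against it. In the fit to all arrays that share was 9.57% at 10 min. On arrays of the common scale the later medians were smaller, at 0.07 at 45 min (20 of 33 genes above 0), 0.22 at 60 min, 0.17 at 90 min and 0.10 at 120 min (18 of 33 above 0).

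RPN10, which docks ubiquitin chains on the cap, was the only one of the 34 genes called at single gcn4 times, although with strain and replicate number as a random block 1 gene each was also called at 10, 20 and 45 min. It read 929, 1425 and 935 before 3AT, 1526, 1084 and 969 at 10 min, then 3660.3 and 2168 at 60 min. Later arrays gave 2692, 2827 and 1957 at 90 min, then 3076, 1975 and 2239.7 at 120 min. All arrays from 60 min on were above all arrays at 0 min. It rose by 1.38 ± 0.35 at 60 min (limma, adjusted p = 0.0175), 1.18 ± 0.32 at 90 min (limma, adjusted p = 0.0177) and 1.14 ± 0.32 at 120 min (limma, adjusted p = 0.0174). Calls for all genes in gcn4 were 9.57% at 10 min, 4.49% at 20 min, 3.05% at 30 min, 2.55% at 45 min, 1.6% at 60 min, 3.17% at 90 min and 5.36% at 120 min. The call at 60 min was lost without replicate 1 at 0 or at 60 min, that at 90 min without replicate 1 at 0 min or replicate 1 or 2 at 90 min, and that at 120 min without replicate 1 at 0 or at 120 min. The rise in gcn4 was not shown to differ from that in WT: the difference was 0.93 ± 0.48 at 60 min (limma, adjusted p = 0.799), and RPN10 at 0 min was 0.62 ± 0.32 lower in gcn4 than in WT on the log2 scale (limma, adjusted p = 0.337).

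RPN6, the lid subunit that clamps lid and core together, was the only one of the 34 genes whose time course in gcn4 differed from that in WT by the F-test (adjusted p = 0.0141), where 1.43% of all genes did. In WT it read 729.7, 1037 and 937 before 3AT, 1337, 1708 and 1623 at 30 min and 1098, 1294 and 1179 at 45 min. In gcn4 it read 966, 1049 and 682 before 3AT, 482, 673 and 617 at 10 min, then 651, 597 and 596 at 20 min. Its next arrays gave 769, 551 and 758 at 30 min, then 1341, 1479 and 1083 at 45 min. WT was thus highest at 30 min, when gcn4 was still low, and gcn4 was high from 45 min, with no overlap between strains at 30 min. The difference between the changes was -1.15 ± 0.38 at 30 min (limma, adjusted p = 0.121) and 0.13 ± 0.38 at 45 min (limma, adjusted p = 0.979). The call was lost without WT replicate 2 at 30 min, gcn4 replicate 2 at 30 min or gcn4 replicate 3 at 60 min, and when arrays were centred on their medians or quantile normalized.

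Other members called over the gcn4 times were low at 10 min, high late, or both. PRE3 read 2583, 2396 and 1294 before 3AT, 1615, 1207 and 1159 at 10 min and 2813, 2969 and 2205 at 120 min (F-test, adjusted p = 0.00384). RPN12, a lid subunit, read 411, 344 and 349 before 3AT and 737, 649 and 538 at 90 min, without overlap (F-test, adjusted p = 0.00181). RPT3 read 909, 861 and 485 before 3AT, 403, 395 and 538 at 10 min and 951 and 785 at 60 min (F-test, adjusted p = 0.0375). PRE8 read 2037, 1925 and 1124 before 3AT and 1288, 1055 and 997 at 10 min (F-test, adjusted p = 0.0052). In PRE3, RPT3 and PRE8 replicate 3 was the low array at 0 min. The catalytic genes PUP1 and PRE2 and the deubiquitinase RPN11 were not called: PUP1 read 1561, 1457 and 1152 before 3AT and 3237 and 2758 at 60 min, PRE2 read 4914, 3396 and 1914 before 3AT and 2683, 2252 and 2215 at 10 min, and RPN11 read 1814, 2324 and 1106 before 3AT and 1400.1, 1855 and 1264 at 10 min.

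**Figure D4:**
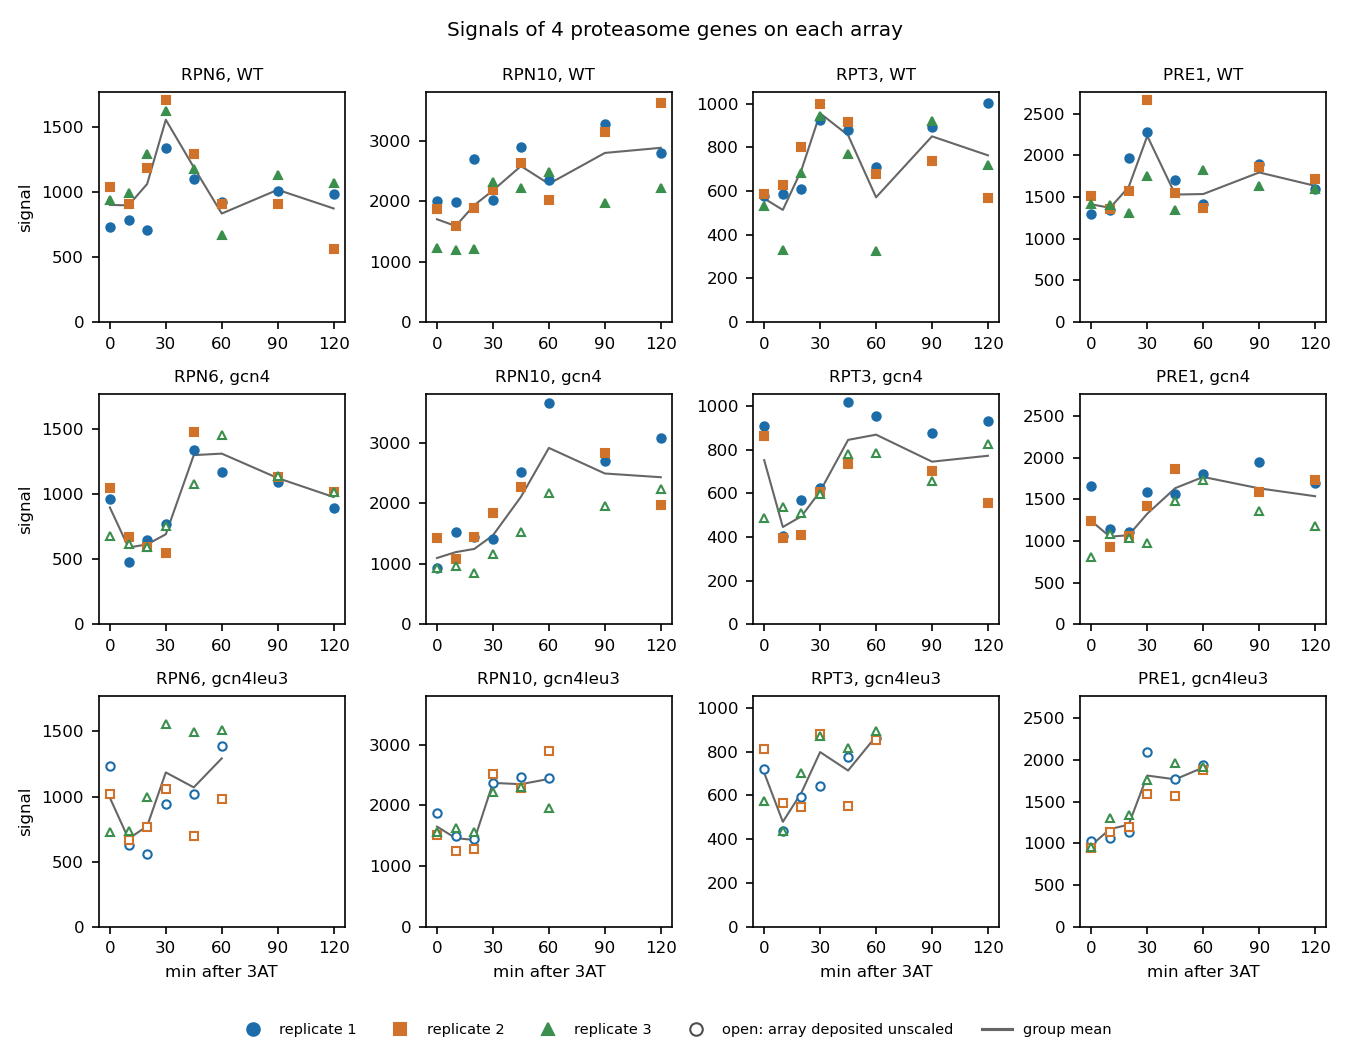
Signals of RPN6, RPN10, RPT3 and PRE1 (columns) on each array (y axis, array trimmed mean set to 500) against minutes after 3AT (x axis) in WT, gcn4 and gcn4leu3 (rows); points are arrays, open where deposited on another scale, lines join group means. RPN6 in gcn4 lies between 551 and 769 at 30 min where WT lies between 1337 and 1708, and PRE1 in gcn4leu3 lies between 938 and 1032 at 0 min and between 1874 and 1936 at 60 min.

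In gcn4leu3, which also lacks GCN4, the means of most of the 33 genes again lay below those at 0 min first and above them later. By the F-test over times 6 of 34 genes were called, where 5.29% of all genes were. The 6 calls became 0 when any one replicate number was left out at every time, and 18 when the fit held only the arrays of the strain. They were PRE10, PRE1 and PRE7 of the core, the ATPase RPT2, the base scaffold RPN2 and the lid subunit RPN7. The median change was -0.28 at 10 min, -0.13 at 20 min, 0.44 at 30 min, 0.43 at 45 min and 0.39 at 60 min. The lowest mean of the 6 times was at 10 min for 27 of the 33 genes. All 3 arrays at 45 min were above all 3 at 0 min for 16 genes, where 12.1% of all genes were. Here too replicate 3 at 0 min was the low array, with a median against WT at 0 min of -0.30, and without it the median change was -0.46 at 10 min and 0.29 at 60 min.

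PRE1, a beta subunit, read 1032, 938 and 959 before 3AT, 1064, 1138 and 1308 at 10 min, then 2094, 1589 and 1753 at 30 min. Its last arrays gave 1775, 1567 and 1958 at 45 min, then 1936, 1874 and 1918 at 60 min. Its arrays stood higher than 0 min at each of these times, 10 min included. It rose by 0.87 ± 0.23 at 30 min (limma, adjusted p = 0.0268), 0.84 ± 0.23 at 45 min (limma, adjusted p = 0.0268) and 0.96 ± 0.23 at 60 min (limma, adjusted p = 0.0111), and was the only one of the 34 genes called at single times. Calls for all genes in gcn4leu3 were 2.66% at 10 min, 1.16% at 20 min, 1.32% at 30 min, 2.16% at 45 min and 1.85% at 60 min. The call at 60 min was lost without replicate 2 at 0 min or replicate 1 at 60 min. The calls at 30 and 45 min were lost without replicate 1 or 2 at 0 min, and also without replicate 1 or 3 at 30 min or any array at 45 min. RPN7, a lid subunit, read 1024, 1098 and 771 before 3AT and 1709, 1647 and 1645 at 60 min, without overlap (F-test, adjusted p = 0.0074). RPT2 read 1041, 961 and 452 before 3AT, 450.4, 415 and 457 at 10 min and 1005, 877 and 834 at 30 min (F-test, adjusted p = 0.0222).

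In gat1gcn4, the third strain without GCN4, 0 of 34 genes passed the F-test over times, where 5.01% of all genes did. An unadjusted p under 0.05 was found for 0 of 33 genes at 20, 45 and 60 min, 2 at 10 min and 1 at 30 min. The share of all genes at that unadjusted threshold is not given here. None of the 34 was called at a single time, where 1.66% of all genes were at 10 min, 2.26% at 20 min, 1.85% at 30 min, 1.68% at 45 min and 2.3% at 60 min. The median change of the 33 genes was -0.17 at 10 min, -0.07 at 20 min, 0.21 at 30 min, 0.13 at 45 min and 0.19 at 60 min. It depends on which 0 min array is used: at 60 min it was 0.46 without replicate 1 and -0.10 without replicate 3, and at 10 min 0.14 and -0.46. Those values set 1 array at 0 min against later arrays of every number, although numbers were taken to pair arrays in this strain. Within replicate 1 the median against WT at 0 min went from 0.71 to 0.36 at 10 min, 0.54 at 20 min and 0.52 at 60 min. Within replicate 3 it went from 0.04 to -0.08, -0.12 and 0.41 at the same times.

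In gat1 and leu3 the genes were highest at 30 min, as a group. The median change in gat1 was -0.18 at 10 min, 0.18 at 20 min, 0.43 at 30 min, 0.18 at 45 min, 0.24 at 60 min, 0.28 at 90 min and 0.25 at 120 min, and the highest mean was at 30 min for 19 of the 33 genes. At 10 min 28 of the 33 genes were below 0, and 7 had all arrays below those at 0 min, where 12.5% of all genes did. By the F-test 1 of 34 genes was called in gat1, RPN12 (adjusted p = 0.034), where 10.4% of all genes were. RPN12 read 313, 463 and 493 before 3AT, 293, 276 and 265 at 10 min, then 689, 695 and 664 at 30 min, with no overlap between the 3 times. None of the 34 was called at a single gat1 time, where all genes were at 1.82% at 10 min, 1.87% at 20 min, 3.01% at 30 min, 2.48% at 45 min, 2.07% at 60 min, 1.09% at 90 min and 0.731% at 120 min.

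The median change in leu3 was 0.01 at 10 min, 0.05 at 20 min, 0.35 at 30 min, 0.22 at 45 min, 0.17 at 60 min, 0.09 at 90 min and 0.00 at 120 min, and 32 of 33 genes were above 0 at 30 min. On arrays of the common deposited scale alone the medians were 0.13, 0.28, 0.32, 0.08, 0.01, -0.10 and 0.00 at those times, so that the value at 20 min was higher and that at 90 min turned below 0. The arrays at 20 min stood far apart, with medians against WT at 0 min of 0.60, 0.86 and -0.32, the last in replicate 3. RPN13, a ubiquitin receptor, was the only one of the 34 genes called in leu3, both by the F-test (adjusted p = 0.006), where 4.81% of all genes were, and at 60 min. It read 3665, 2558 and 3774 before 3AT and 1864, 2649.6 and 17.6 at 60 min, and the call (-2.58 ± 0.61; limma, adjusted p = 0.00678) rests on replicate 3. Without that array the change was -0.56 (limma, adjusted p = 0.734). All genes called in leu3 were 0.642% at 10 min, 1.1% at 20 min, 0.962% at 30 min, 0.945% at 45 min, 1.98% at 60 min, 1.46% at 90 min and 1.23% at 120 min.

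In gat1leu3 the median change was 0.03 at 10 min, 0.32 at 20 min, 0.42 at 30 min, 0.58 at 45 min and 0.43 at 60 min, with 33 of 33 genes above 0 at 45 min. Both arrays at 45 min were above all 0 min arrays for 26 genes, where 12.3% of all genes were. By the F-test 4 of 34 genes were called (PRE4, PRE6, RPN9 and RPT4), where 5.67% of all genes were. At single times 1 gene was called at 10 min (0.588% of all genes), 3 at 20 min (0.642%), 3 at 30 min (2.8%), 3 at 45 min (2.01%) and 4 at 60 min (7.27%).

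These calls rest on single arrays. PRE6, an alpha subunit, read 4287, 34.9 and 1786 before 3AT and 6634, 3927 and 4218 at 60 min, and its change of 2.71 ± 0.57 (limma, adjusted p = 0.000748) became 0.79 ± 0.48 (limma, adjusted p = 0.5) without replicate 2 at 0 min. PRE4, a beta subunit, read 2485, 28.4 and 2246 before 3AT and 3725, 2019 and 3018 at 60 min, a change of 2.17 ± 0.46 (limma, adjusted p = 0.000797) that became 0.26 ± 0.29 (limma, adjusted p = 0.784). RPT4, an ATPase, read 971, 26.8 and 668 before 3AT, and RPN14 read 131, 15.9 and 179, low on the same array. Without it 0 of 34 genes were called at any gat1leu3 time or by the F-test, against 2.96% of all genes in that F-test. The median over the 33 genes moved less, to 0.29 at 20 min, 0.54 at 45 min and 0.38 at 60 min, with 32 of 33 genes above 0 at 45 min. RPN9, a lid subunit, read 595, 657 and 707 before 3AT and 868, 702 and 122 at 60 min, where replicate 3 was the isolated low reading.

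**Figure D5:**
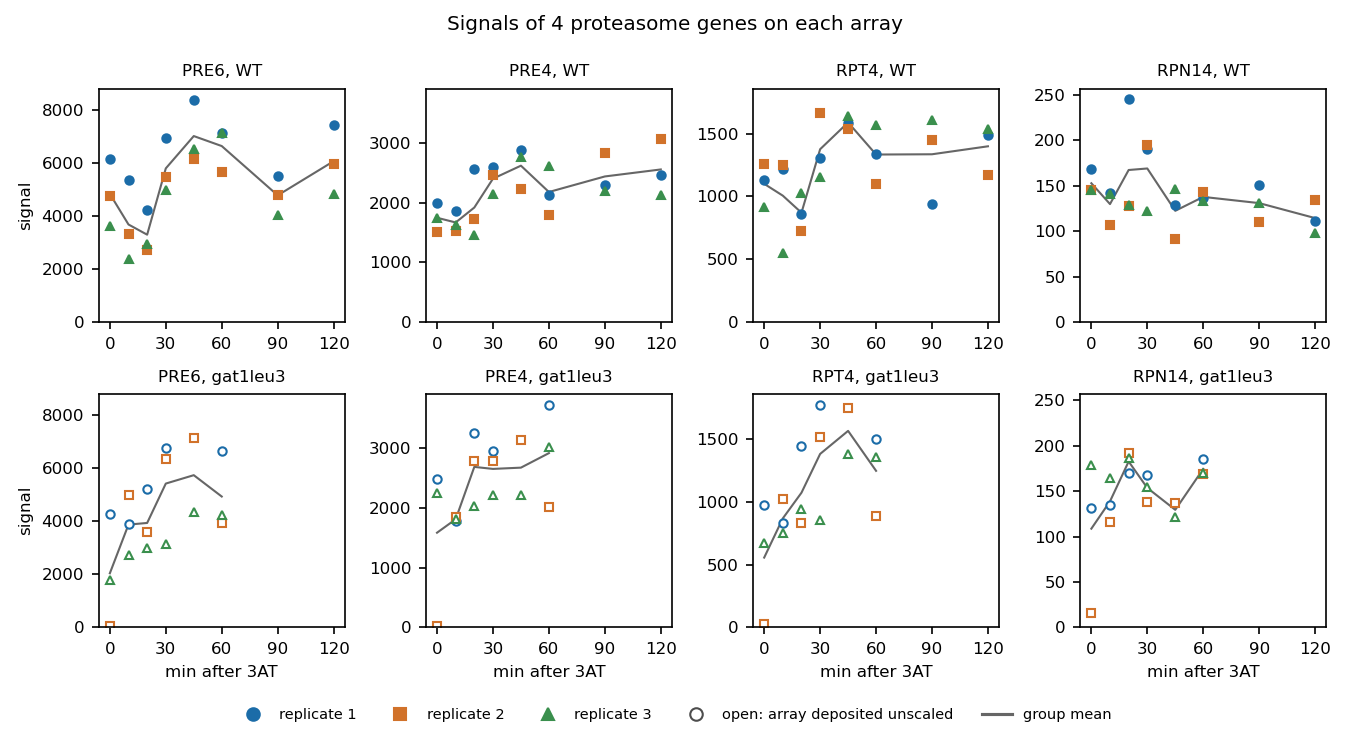
Signals of PRE6, PRE4, RPT4 and RPN14 (columns) on each array (y axis, array trimmed mean set to 500) against minutes after 3AT (x axis) in WT and gat1leu3 (rows); points are arrays, open where deposited on another scale, lines join group means. In gat1leu3 at 0 min replicate 2 reads 34.9 for PRE6, 28.4 for PRE4, 26.8 for RPT4 and 15.9 for RPN14, below every other array shown.

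The catalytic genes, RPN10 and RPN11 were not called in leu3, gat1, gat1gcn4, gcn4leu3 or gat1leu3. RPN10 read 1944, 1707 and 2099.8 before 3AT and 2578, 2664 and 3070.3 at 60 min in leu3, without overlap, a change of 0.53 ± 0.32 (limma, adjusted p = 0.56). In gat1 it read 1137, 1804 and 1012 before 3AT and 2408, 2026 and 2121 at 120 min, again without overlap, a change of 0.76 ± 0.32 (limma, adjusted p = 0.394). In gat1gcn4 its 0 min arrays, at 3129 and 1213, spanned all 3 arrays at 60 min. RPN11 in gat1 read 1797, 1131 and 1124 before 3AT and 2225, 2282 and 2055 at 30 min, without overlap, a change of 0.72 ± 0.28 (limma, adjusted p = 0.164). PRE3 in leu3 read 2148, 1352 and 2052 before 3AT and 2640.3, 3005 and 2471 at 30 min, also without overlap, a change of 0.57 ± 0.27 (limma, adjusted p = 0.458). PUP1 in gat1 spread widely before 3AT, at 1379, 557 and 1973.

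Apart from RPN6 in gcn4, no time course of the 34 genes differed from that in WT by the F-test. This covers leu3, where 0.659% of all genes differed, gat1 (0.499%), gat1gcn4 (2.67%), gcn4leu3 (0.998%) and gat1leu3 (0.374%). All of these comparisons share the WT arrays. The medians of the strains were not tested against one another, and in gcn4leu3 and gat1gcn4 their sign at 20 min turned with the 0 min arrays used: without replicate 2 at 0 min the gcn4leu3 median was 0.0037 and without replicate 1 at 0 min the gat1gcn4 median was 0.20. Within replicate 1 and within replicate 3 of gat1gcn4 the median of the array was lower at 20 min than at 0 min. In single differences PRE6 in gat1leu3 was above WT at 10 and 20 min, where 0.873% and 0.945% of all genes were called higher, and both differences rest on the 0 min array already described.

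Over the 50 groups with replicates the members tracked one another. The correlation of group means between 2 of the 33 genes had a median of 0.53 and was above 0 for 503 of 528 pairs. The groups share arrays' scales and strains, so these values are descriptions. RPN7 followed the mean of the others most closely (r = 0.91), then PRE7 (0.88) and RPN12 (0.86). RPN13 (r = -0.06), RPN14 (0.19) and RPN4 (0.32) followed it least, and the median for all other genes was 0.00. The group means of RPN13 hold isolated low readings of 299 (WT 30 min replicate 2) and 17.6 (leu3 60 min replicate 3). Those of RPN14 hold 15.9 (gat1leu3 0 min replicate 2). How far these readings lower r was not tested.

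Genes that work with the proteasome were described from lists. Of 14 assembly and associated factors 1 was called in WT at 30 min (1.48% of all genes), ECM29, a protein that holds core and cap together, which rose by 1.22 ± 0.33 (limma, adjusted p = 0.0333). ECM29 also rose in gcn4leu3 at 60 min, by 1.45 ± 0.33 (limma, adjusted p = 0.0058). It rose in gat1leu3 at 60 min too, by 1.46 ± 0.33 (limma, adjusted p = 0.00215), and by 1.39 ± 0.37 (limma, adjusted p = 0.0305) without replicate 2 at 0 min. POC4, a chaperone of core assembly, went the other way. It fell in gat1 by 1.09 at 30 min, 1.06 at 45 min and 0.97 at 60 min (limma, adjusted p = 0.00688, 0.00976 and 0.0266), where 3.01%, 2.48% and 2.07% of all genes were called. In leu3 POC4 fell by 1.06 at 30 min (limma, adjusted p = 0.0178), where 0.962% were. In gat1leu3 at 0 min it was below WT by 1.10 on the log2 scale (limma, adjusted p = 0.00285), a call lost without replicate 2. ADD66, another core assembly chaperone, fell in gcn4 at 10 min by 0.87 (limma, adjusted p = 0.025), where 9.57% were called. Of 20 ubiquitin system genes 2 were called in WT at 30 min (1.48% of all genes), UBI4, the stress-induced polyubiquitin gene, at 1.65 ± 0.46 (limma, adjusted p = 0.0443) and DDI1, a ubiquitin shuttle and protease, at 1.31 ± 0.33 (limma, adjusted p = 0.0175). The list's median was 0.51 there, with 19 of 20 genes above 0. In gcn4 the ubiquitin list had a median of -0.34 at 10 min and -0.26 at 20 min, and 2 genes fell at 20 min (4.49% of all genes called), the ubiquitin-activating enzyme UBA1 by 0.97 and the segregase CDC48 by 0.93 on the log2 scale (limma, adjusted p = 0.0307 and 0.044). DOA1, which binds ubiquitin and CDC48, was called higher at every gat1gcn4 time, by 2.14 to 2.66, where its difference from WT at 0 min was -2.24. All these calls share the 2 gat1gcn4 arrays at 0 min. Isolated low readings were found there for 168 genes in replicate 3 and 42 in replicate 1. Whether the DOA1 calls rest on 1 of these arrays was not tested. In the other strains 1 ubiquitin gene was called higher in leu3 at 120 min (DOA1), 1 in gat1 at 20 min (UBR2) and 1 in gcn4leu3 at 30 and at 45 min (DSK2).

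None of the 4 regulators of RPN4 transcription (YAP1, HSF1, PDR1 and PDR3) was called in any strain. Their WT median was 0.70 at 30 min, with 4 of 4 above 0.

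Heat shock and general stress genes moved beside the proteasome genes in some strains, and their part in the results was not tested. The 20 chaperones had WT medians of -0.23 at 10 min and 0.47 at 30 min, where HSP82 rose by 2.38 ± 0.67 (limma, adjusted p = 0.0435). In gcn4 their median was -0.60 at 10 min and 0.60 at 90 min, and in gat1leu3 it was 1.10 at 60 min, with 6 of 20 called higher (7.27% of all genes called), and 1.04 with 5 called higher without replicate 2 at 0 min. The 18 general stress genes were already higher in gcn4 than in WT at 0 min, with 15 called (4.85% of all genes) and a median of 3.20, and fell after 3AT, with a median of -1.36 at 10 min (6 called lower, 9.57% of all genes called) and -1.77 at 120 min (9 called lower, 5.36% of all genes called). In gcn4leu3 11 of the 18 were called higher than WT at 0 min (3.37% of all genes) and in gat1gcn4 8 were (4.38%).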

How the data were processed

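Total RNA was hybridised to 151 Affymetrix yeast arrays. The submitters' processing notes name MAS5 (version not given in the sources used here), and what was deposited is the intensity of each probe set, not logged. In 78 arrays the 2% trimmed mean was near 501, and in the other 73 it lay between 22.4 and 104.5, so each array was multiplied to a trimmed mean of 500. The array floors, each the 20th percentile of its probe sets, then lay between 13.0 and 31.4. Of 9335 probe sets 6504 were annotated with 1 gene and 328 with several, which were left out. For a gene with several, probe sets without a letter suffix (such as _s_at) came first, and the brightest of those preferred stood for the gene. Genes at or above the floor in at least 2 of 3 arrays (1 of 2) of some group were kept, 5611 of 5656.

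log2(signal + 16) was fitted with limma 3.58.1 (R 4.3.3), with 1 coefficient per strain and time over 145 arrays, empirical Bayes with trend, and Benjamini-Hochberg adjustment over all genes of a contrast at 0.05. Precision is limited by how many arrays a group has. The fit was tested on simulated data. No pair of arrays was identical.

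The members and lists were chosen with earlier results of these data known. Named were RPN4, PRE3, PUP1, PRE2, RPN10, RPN11, up to 6 called members a comparison, and members opposite to most others. Signals of different probe sets were not compared, so the rule's part on the brightest and dimmest members was not used. Others were named after their values were seen: SCL1, PRE10 and RPT2 as the highest in WT, RPN14, PRE5 and RPN13 for low readings, and RPN7, PRE7 and RPN12 for their correlation.

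Replicate numbers, taken from the titles, were checked for pairing by correlating deviations from group means. The check covered arrays of the same number only, and the main fit used no pairing. Every pair exceeded 0.1 only in gcn4 (0.127 to 0.544 over 20 pairs) and in gat1gcn4 (0.178 to 0.426), and numbers were taken to pair arrays only where every pair did. In leu3 19 of 21 pairs exceeded it (-0.058 to 0.600), in gcn4leu3 13 of 15, in WT 17 of 21, in gat1leu3 9 of 14 and in gat1 8 of 20, so pairing is not excluded there. Alternatives covered scaling, pseudocount, filter, probe set choice, array weights, replicate blocks and left-out arrays.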

Additional observations from a re-analysis of the deposited data

Results flagged for a closer look

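The time course of RPN6 in gcn4 differed from that in WT, by the F-test over all times (limma, adjusted p = 0.0141). RPN6 was highest at 30 min in WT, at 1337, 1708 and 1623, where gcn4 read 769, 551 and 758. It was the only one of the 34 proteasome genes for which such a difference passed the test in gcn4, where 1.43% of all genes did. The call was lost without WT replicate 2 at 30 min and without some single gcn4 arrays. It was also lost when arrays were centred on their medians or quantile normalized.

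The change of PRE6 from 0 min was larger in gat1leu3 than in WT by 2.80 at 10 min (limma, adjusted p = 0.0498) and by 2.93 at 20 min (limma, adjusted p = 0.0396) on the log2 scale. The gat1leu3 arrays read 4287, 34.9 and 1786 at 0 min, and without the array at 34.9 the change of PRE6 in gat1leu3 was 0.44 ± 0.48 at 10 min and 0.46 ± 0.48 at 20 min.

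No group held 4 or more arrays, so single arrays far from their group were not tested by their gap. Every file was used.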

How the results depend on the processing

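Of 816 values under alternatives that kept every array's group, 700 kept their direction and their side of the threshold or moved little, as did 458 of 578 values with arrays left out, for 65 results. The cause of the other changes was not tested. Counts below are of the 34 genes, and medians are log2 changes of the 33 genes without RPN4. The share of all genes called under each setting is not given in this section. The counts therefore show only how the calls of these genes moved, and cannot be judged against all genes.

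With the deposited values not rescaled, 0 genes were called over the times of WT, gcn4, leu3, gat1, gcn4leu3 and gat1leu3 and 0 differed in response in gcn4. At 0 min 30 in gat1gcn4, 34 in gcn4leu3 and 34 in gat1leu3 then differed from WT. Arrays of those strains had deposited trimmed means between 22.4 and 104.5, against near 501 in WT, so these 0 min counts hold the difference in deposited scale. Medians without rescaling were 0.23 in gcn4 and 0.0922 in gat1leu3 at 60 min, and reversed to 0.0402 at 10 min and 0.0675 at 20 min in gcn4. With array quality weights the calls over times were 12 in WT, 25 in gcn4, 3 in leu3, 15 in gat1, 6 in gat1gcn4, 30 in gcn4leu3 and 13 in gat1leu3, the response differed for 7 genes in gcn4, 1 in leu3, 2 in gat1gcn4 and 13 in gcn4leu3, and at 0 min 3 in gcn4, 2 in leu3, 3 in gcn4leu3 and 2 in gat1leu3 were called. In WT these weights also gave 1 call at 20 min and 11 at 45 min, with medians at 60 min of 0.20 in gcn4 and 0.29 in gcn4leu3. With arrays of the common deposited scale only, calls over times were 9 in WT, 3 in leu3 and 6 in gat1, the response differed for 3 genes in gcn4 and 2 in leu3, 1 gene was called in WT at 45 min, the gcn4 median at 60 min was 0.22, and RPN4 in gcn4 at 20 min reversed to -0.19. With only the arrays of the strains compared, calls over times were 4 in gcn4, 0 in leu3, 4 in gat1, 18 in gcn4leu3 and 0 in gat1leu3, at 0 min 2 in gcn4leu3 and 1 in gat1leu3, and 1 each in WT at 20 and 45 min. Median centring gave 4 calls in gat1 and 3 in gcn4leu3 over times, 0 for the response of gcn4, WT medians of 0.0556, 0.51, 0.61, 0.54 and 0.54 at 10, 30, 45, 90 and 120 min, and RPN4 in WT at 20 min reversed to 0.0174. Quantile normalization gave 3 calls in gat1 and 10 in gcn4leu3, 0 for the response of gcn4, a gcn4leu3 median of 0.45 at 60 min, and a call of RPT3 in WT at 30 min (0.84; limma, adjusted p = 0.0392). A pseudocount of 1 gave 2 calls in gat1 over times, and one of 64 a WT median of 0.41 at 90 min. Without WT replicate 2 at 30 min and gcn4 replicate 3 at 90 min, 1 gene was called over the WT times, 0 for the response of gcn4, and the WT median at 30 min was 0.52.

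With the replicate number as a fixed block 12 genes were called over the gcn4 times and 3 over those of gat1. With strain and replicate number as a random block there were 14 in gcn4, 3 in WT, 2 in leu3, 4 in gat1, 14 in gcn4leu3 and 6 in gat1leu3, and 1 gene differed in response in gat1leu3. At single times the random block gave 1 call in WT at 30 min, 1 each in gcn4 at 10, 20 and 45 min and 3 in gat1 at 30 min, where none was made without it, and 3 rather than 1 in gcn4leu3 at 45 and 60 min. In gat1leu3 the calls at 10, 20, 45 and 60 min went from 1, 3, 3 and 4 to 3, 4, 4 and 6, and those of its difference from WT from 1 to 3 at 20 min and from 0 to 1 at 30 min.

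With 1 array, or 1 replicate number of a strain at every time, left out, calls over times ran from 0 to 2 in WT, 0 to 12 in gcn4, 0 to 2 in leu3, 0 to 1 in gat1, 0 to 0 in gat1gcn4, 0 to 6 in gcn4leu3 and 0 to 5 in gat1leu3. In gcn4 the 11 calls became 0, 1 and 7 without replicate 1, 2 and 3 at every time, and in gcn4leu3 the 6 became 0 without any of them. Calls for the response ran from 0 to 1 in gcn4 and leu3 and from 0 to 3 in gat1leu3, and those at 0 min from 0 to 2 in gat1gcn4 (2 without its replicate 3) and 0 to 5 in gat1leu3. RPN4 at 20 min ran from -0.23 to -0.01 in WT and from -0.11 to 0.49 in gcn4. WT medians ran from -0.0748 to 0.14 at 10 min, 0.12 to 0.31 at 20 min, 0.33 to 0.52 at 30 min, 0.38 to 0.55 at 45 min, 0.23 to 0.36 at 60 min, 0.41 to 0.52 at 90 min, then 0.40 to 0.49 at 120 min. Medians at 60 min ran from 0.13 to 0.61 in gcn4, 0.08 to 0.24 in leu3, 0.12 to 0.20 in gat1, -0.10 to 0.46 in gat1gcn4, 0.28 to 0.48 in gcn4leu3 and 0.37 to 0.41 in gat1leu3. At 10 and 20 min they ran from -0.59 to -0.17 and -0.54 to -0.05 in gcn4, and from -0.46 to 0.14 and -0.37 to 0.20 in gat1gcn4. At 20 min in gcn4leu3 the median ran from -0.25 to 0.0037, above 0 only without replicate 2 at 0 min. PRE4 in gat1leu3 against WT at 0 min ran from -2.47 to 0.44, the latter without its replicate 2. Single arrays after 0 min of gat1, gat1gcn4, gat1leu3 and leu3 (other than leu3 at 60 min) were not left out one by one. The results on medians at 10 and 20 min of the deletion strains, on named genes and on left-out replicate numbers were added after the data had been seen.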

Other observations

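The met31 arrays, 1 at each time and with no treatment named in the labels after 0 min, gave medians over the 33 genes against WT at 0 min of -0.12, -0.19, 0.03, 0.23, 0.62 and 0.62 at 0, 10, 20, 30, 45 and 60 min.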
